A study of Sus scrofa with 6 samples.

Results

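The genes described here were 5 transcription factors of cartilage cells, SOX9, FOXA2, ERG, ETV5 and NFIA, followed over 6 arrays of porcine cartilage and of chondrocytes grown from it. They were found by gene symbol in the platform annotation, which assigned 9 probe sets to the 5 genes, out of 6765 genes with a symbol of their own. Growth plate cartilage, which lengthens growing bones and is replaced by bone, was measured as chondrocyte cultures at day 10 and day 20 and as native tissue. Articular cartilage, the lasting cover of the joint surface, was measured in the same 3 stages. The cultures were started from cells freed with collagenase and kept at 37 °C in DMEM/Ham's F12 medium with FBS and antibiotics, at 5% oxygen and 5% carbon dioxide, and the labels call them day 10 and day 20 of differentiation. No breed, age, genotype or number of animals is given in the labels, and they do not say whether arrays share animals. Each condition had 1 array, so a difference between any 2 arrays had no replicate check.

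Transcription factors bind DNA and set which genes a cell reads out. SOX9, an HMG-box factor, starts and maintains the chondrocyte state and switches on the genes of type II collagen and aggrecan. FOXA2, a forkhead factor, takes part in chondrocyte hypertrophy in mouse, the step in which growth plate cells enlarge and prepare their matrix for mineral. ERG and ETV5 both belong to the ETS family. ERG marks the developing articular layer in chick and mouse limbs and is also a factor of endothelial cells, and ETV5 is switched on by FGF signalling in many embryonic tissues. NFIA belongs to the nuclear factor I (NFI) family, whose other members are NFIB, NFIC and NFIX.

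Signals are in the linear units of the deposited table. Signals under 36.1, the 40th percentile of all signals, were set to that floor before log2 was taken, and a ratio with 1 side at the floor is a lower bound, written "at least". Each gene was read from its probe set of highest mean log2 signal, and 5601 genes above the floor on at least 2 arrays were tested together with limma in a model of tissue plus stage. With no replicates, the p-values measure a difference against the part of the signals that tissue and stage, added up, leave over. A call needed an adjusted p (Benjamini-Hochberg over all genes) under 0.05 and a difference of at least 2-fold. The array of native articular cartilage stood apart, correlating less with the rest (0.889 on average, over genes) than any other array did (0.930 to 0.939). Chondrocyte markers were present on every array, with summed signals of 29646 to 36850 on the growth plate arrays and 31434 to 38918 on the articular arrays over 5 markers. Each value is an average over all cells of a sample, in which fewer cells of a type and less RNA per cell cannot be told apart.

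**Figure D1:**
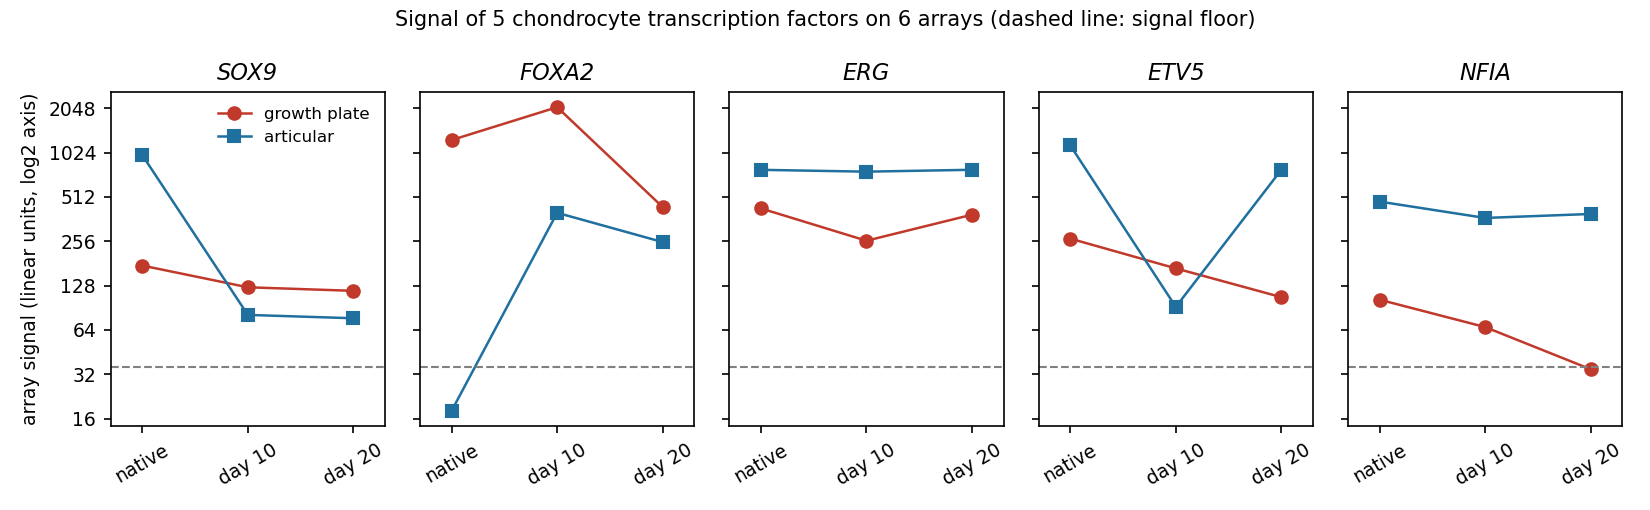
Array signal (linear units on a log2 axis) of SOX9, FOXA2, ERG, ETV5 and NFIA at the native, day 10 and day 20 stages, 1 array per point, growth plate in red circles and articular in blue squares; the dashed line is the floor of 36.1. ERG and NFIA lie lower in growth plate at all 3 stages, FOXA2 lies higher at all 3, and SOX9 and ETV5 cross between native tissue and day 10.

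SOX9 had a single probe set above the floor on all 6 arrays. Its signals in native tissue, day 10 and day 20 were 175, 125 and 118 on the growth plate arrays, against 982, 81.0 and 76.8 on the articular arrays. One array was high, that of native articular cartilage, and the other 5 lay within 76.8 to 175. In native tissue SOX9 was 5.61-fold lower in growth plate. In the growth plate cultures it was 1.54-fold (day 10) and 1.53-fold (day 20) higher than in the articular ones. The direction of the tissue difference was opposite in native tissue and in culture. In culture 8.84% (day 10) and 8.12% (day 20) of all genes lay as far in the same direction as SOX9. With the floor set at the 60th percentile instead, both cultured differences of SOX9 were 0. The opposite direction in culture thus rests on low signals of single arrays.

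FOXA2 was read from 1 of 2 probe sets, above the floor on 5 arrays. Its signals in native tissue, day 10 and day 20 were 1244, 2079 and 437 on the growth plate arrays, against 18.1, 399 and 253 on the articular arrays. All 3 growth plate signals were above all 3 articular ones, and native articular cartilage alone lay under the floor. The ratio of growth plate to articular signal was at least 34.4 in native tissue, 5.21 at day 10 and 1.73 at day 20. The articular signals were at least 11.1-fold (day 10) and at least 6.99-fold (day 20) higher in culture than in native tissue. The growth plate signal at day 20 was 4.76-fold lower than at day 10. The other FOXA2 probe set lay below the floor on all 6 arrays, with signals of 2.11 to 5.76, so the pattern of FOXA2 rests on 1 probe set.

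ERG had a single probe set above the floor on all 6 arrays. Its signals were 427, 258 and 388 on the growth plate arrays and 781, 759 and 782 on the articular arrays, in the order native, day 10, day 20. The articular arrays differed by a factor of at most 1.03, and each growth plate array lay below all of them. ERG was 1.83-fold lower in growth plate in native tissue, 2.94-fold lower at day 10 and 2.02-fold lower at day 20.

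ETV5 was read from 1 of 2 probe sets, above the floor on all 6 arrays. Its signals in native tissue, day 10 and day 20 were 267, 167 and 107 on the growth plate arrays, against 1144, 91.8 and 782 on the articular arrays. Native articular cartilage and the articular culture at day 20 were high, and the articular culture at day 10 was the lowest of the 6. ETV5 was 4.29-fold lower in growth plate in native tissue and 7.32-fold lower at day 20, but 1.83-fold higher at day 10. The second ETV5 probe set was above the floor on the native articular array only, with a signal of 55.1, and had 2.82 to 30.3 elsewhere.

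NFIA was read from 1 of 3 probe sets, above the floor on 5 arrays. Its signals in native tissue, day 10 and day 20 were 103, 66.9 and 34.6 on the growth plate arrays, against 476, 368 and 391.9 on the articular arrays. Every growth plate signal lay below every articular one, and the growth plate culture at day 20 lay just under the floor. NFIA was 4.63-fold lower in growth plate in native tissue, 5.50-fold lower at day 10 and at least 10.8-fold lower at day 20. The 2 other NFIA probe sets were above the floor on the native articular array only, at 44.1 and 44.4. For FOXA2, ETV5 and NFIA, then, 1 probe set each carried the signal.

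**Figure D2:**
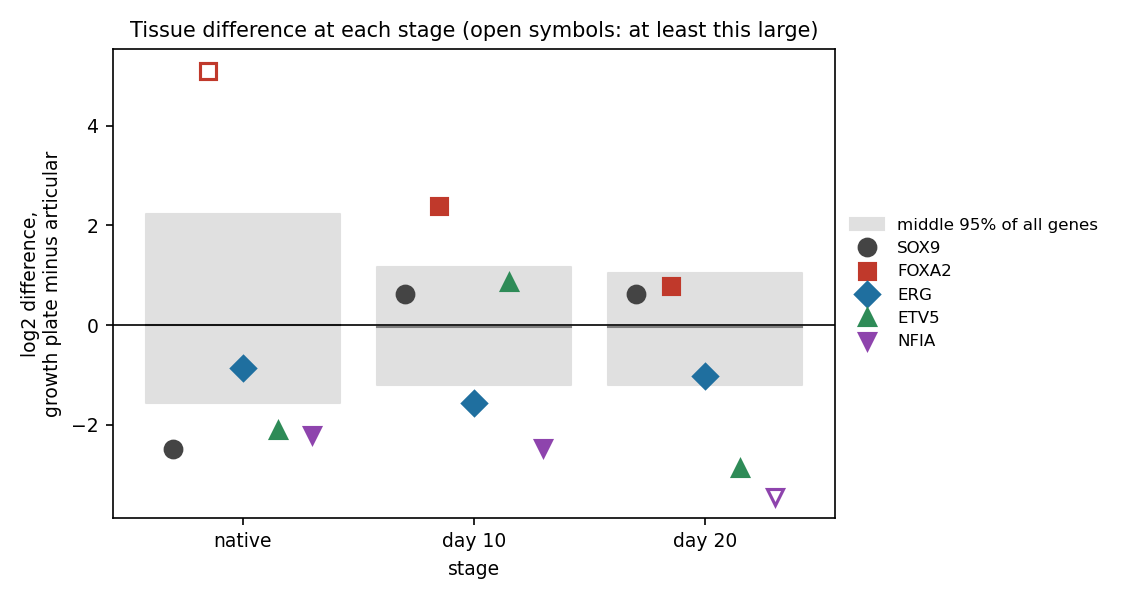
Log2 difference in signal, growth plate minus articular, for each gene in native tissue, at day 10 and at day 20, each point from 2 single arrays; grey boxes hold the middle 95% of all 5601 genes and open symbols are lower bounds on the size. FOXA2 lies at 5.11 or more in native tissue, 2.38 at day 10 and 0.79 at day 20, NFIA lies below the box at every stage, and SOX9 lies below it in native tissue only.

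Set side by side, the 5 genes were not alike in their tissue difference. In native tissue FOXA2, 1 of the 5, reached a 4-fold higher signal in growth plate, as did 3.45% of all genes. SOX9, ETV5 and NFIA were at least 4-fold lower there, 3 of 5, where 1.21% of all genes were. At day 10 FOXA2 was at least 4-fold higher (0.625% of all genes) and NFIA at least 4-fold lower (0.5% of all genes). At day 20 none of the 5 was at least 4-fold higher (0.393% of all genes), and ETV5 and NFIA were at least 4-fold lower (0.75% of all genes). NFIA was at least 2-fold lower in all 3 pairs, as were 18 of all genes (0.321%). The 3 growth plate and 3 articular arrays did not overlap for FOXA2, with growth plate higher (4.62% of all genes), or for ERG and NFIA, with growth plate lower (6.16% of all genes). SOX9 and ETV5 overlapped. A sign-flip permutation test over 3 pairs cannot give an exact two-sided p below 0.25, so no gene could pass it.

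In the limma fit to all 6 arrays 0 of the 5 genes were called for tissue, with 0.0357% of all genes called higher and 0.0179% called lower in growth plate. An unadjusted p under 0.05 was reached by 3 of the 5 and by 10.7% of all genes. NFIA had the largest negative difference of the 5, a log2 difference of -2.70 with 1 array at the floor (95% interval -3.55 to -1.86), with an unadjusted limma p of 0.000274 and an adjusted p of 0.141. By its unadjusted p it ranked 10 among 5601 genes, and with each array divided by its median it was called, at -2.80 with an adjusted limma p of 0.0473. ERG had a log2 difference of -1.15 (95% interval -1.77 to -0.52), with an adjusted limma p of 0.375. FOXA2 had a log2 difference of 2.76 with 1 array at the floor (95% interval 0.83 to 4.69), with an adjusted limma p of 0.426. It was 3.74 when either day 20 array was left out. Both of those fits draw the tissue difference from the native and day 10 arrays alone, without the pair where FOXA2 differed least (1.73-fold). The tissue difference of FOXA2 varied with stage, and its residual SD was 1.54 on the log2 scale, where ERG had 0.26.

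SOX9 and ETV5 did not pass and had wide intervals. The log2 difference of SOX9 was -0.42 (95% interval -2.06 to 1.23), with an adjusted limma p of 0.816, and it was 0.62 in the cultured arrays alone. The log2 difference of ETV5 was -1.37 (95% interval -3.15 to 0.41), with an adjusted limma p of 0.528, and was -2.49 without either day 10 array and -0.62 without either day 20 array. Neither interval excludes a difference of more than 2-fold.

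The 4 cultured arrays could also be fitted by themselves, without the native articular array. In that fit 3 of the 5 genes were called for tissue. FOXA2 was higher in growth plate cultures, with a log2 difference of 1.58 ± 0.33 (SE) and an adjusted limma p of 0.0186, where 1.19% of all genes were called higher. ERG was 2.44-fold lower, with a log2 difference of -1.28 ± 0.26 and an adjusted limma p of 0.0168. NFIA was 7.73-fold lower by the fit, with the growth plate array at day 20 at the floor, with a log2 difference of -2.95 ± 0.34 and an adjusted limma p of 0.000363, and 1.52% of all genes were called lower. SOX9 had a log2 difference of 0.62 ± 0.32 and ETV5 of -1.002 ± 0.60, with adjusted limma p-values of 0.367 and 0.451. Only 1 residual degree of freedom stands behind this fit, beside 11.6 from the prior over all genes, so the SEs reflect mostly the spread of all genes. The day 10 and day 20 log2 differences lay far apart for FOXA2 (2.38 and 0.79) and for ETV5 (0.87 and -2.87). Leaving out a single native array draws the tissue difference from these same 4 arrays and gave calls for the same 3 genes.

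**Figure D3:**
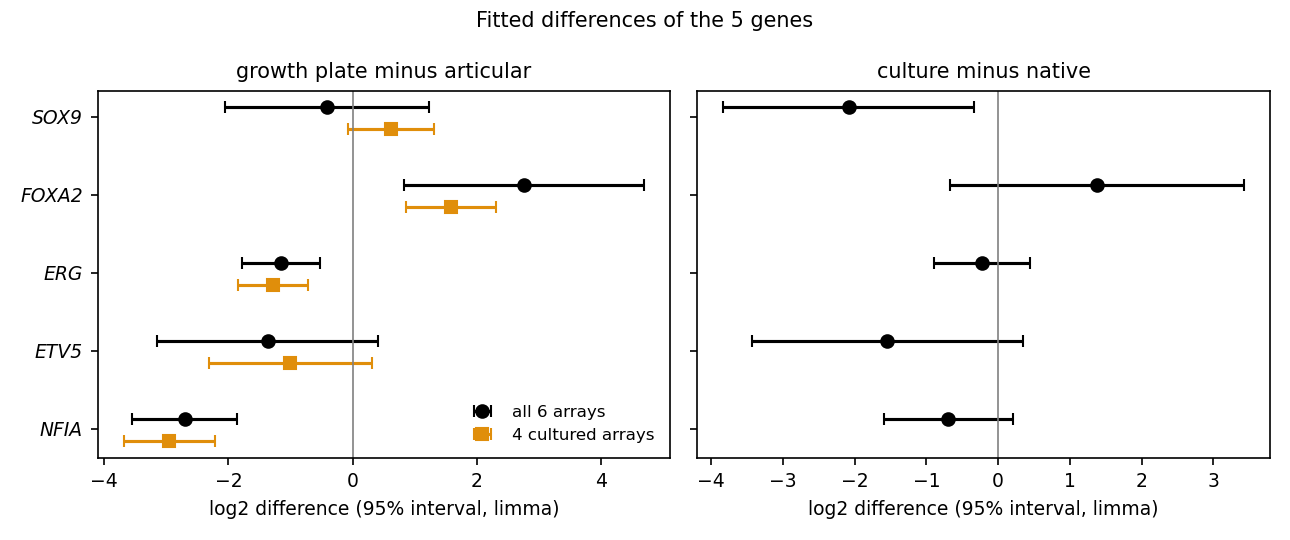
Log2 differences with 95% intervals from limma for the 5 genes, on the left growth plate minus articular from all 6 arrays (black circles) and from the 4 cultured arrays (orange squares), on the right culture minus native from all 6 arrays. For tissue, the intervals of FOXA2, ERG and NFIA exclude 0 in both fits; for culture, that of SOX9 alone does.

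Culture was then set against native tissue. None of the 5 genes was called in the fit to all 6 arrays, where 0% of all genes were called in either direction and 19.4% had an unadjusted limma p under 0.05. SOX9 was the only one of the 5 whose 4 cultured arrays all lay below both native arrays, as did 10.7% of all genes. Its mean log2 difference, culture minus native, was -2.08 (95% interval -3.83 to -0.34), with an unadjusted limma p of 0.0269 and an adjusted p of 0.201. Among markers of other cell types, DES, a muscle filament protein, was at 127 to 326 on the cultured arrays against 29.9 and 10.1 on the native ones (log2 2.69, adjusted limma p of 0.101). Of the other muscle markers read, CKM was above the floor on 1 array and was not tested. MYH7 had a log2 difference of 0.26 (adjusted limma p of 0.533). CTSK, a protease of osteoclasts that chondrocytes also make, had a log2 difference of -1.21 (adjusted limma p of 0.101). The part of these markers in the difference of SOX9 was not tested. The size differed between the tissues, a difference that was not tested. In growth plate cultures SOX9 was 1.404-fold (day 10) and 1.48-fold (day 20) lower than in native growth plate. In articular cultures it was 12.1-fold and 12.8-fold lower than in native articular cartilage. At day 10 SOX9 and ETV5 were at least 4-fold lower in articular culture than in native tissue (1.75% of all genes) and FOXA2 at least 4-fold higher (4.46% of all genes), and at day 20 SOX9 was at least 4-fold lower (1.79% of all genes) and FOXA2 at least 4-fold higher (4.37% of all genes). Without the native articular array the log2 difference of SOX9, culture minus native, was -0.53 and was not called (adjusted limma p of 0.483, with 2.06% of all genes called lower). Without the native growth plate array it was -3.64 and was called (adjusted limma p of 6.13e-05, with 7.39% of all genes called lower), a comparison that rests on the native articular array as the single native one.

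FOXA2 had a log2 difference, culture minus native, of 1.38 (95% interval -0.67 to 3.43), and the tissues went opposite ways by day 20. The articular culture at day 20 was at least 6.99-fold higher than native articular cartilage, while the growth plate culture at day 20 was 2.85-fold lower than native growth plate. Without the native growth plate array FOXA2 was called higher in culture, at 3.14 with an adjusted limma p of 0.000501 (13.5% of all genes), and without the native articular array it had -0.39 and was not called (1.73% of all genes called higher). ETV5 had -1.54 (95% interval -3.43 to 0.35), NFIA -0.69 (95% interval -1.59 to 0.21) and ERG -0.23 (95% interval -0.89 to 0.44). These moved when single arrays were left out. ETV5 ran from -2.38 without growth plate day 10 to -0.71 without articular day 10. NFIA ran from -1.06 without native articular cartilage to -0.32 without native growth plate, and ERG from -0.43 to -0.02 without the same 2 arrays. The adjusted limma p-values of these 4 genes lay between 0.326 and 0.661.

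Between the culture days 0 of the 5 genes were called in the fit to all arrays (0% of all genes in either direction, and 14.6% with an unadjusted limma p under 0.05). FOXA2 was lower at day 20 than at day 10 in both tissues, 4.76-fold in growth plate and 1.58-fold in articular cultures, where 0.839% of all genes were 4-fold lower or more in growth plate and 1.5% were 4-fold higher or more. In the fit to the 4 cultured arrays it was called, with a log2 difference of -1.46 ± 0.33 and an adjusted limma p of 0.0104, where 4.6% of all genes were called lower and 4.66% higher. ETV5 was 8.52-fold higher at day 20 in articular cultures, a difference that 0.161% of all genes reached, and 1.57-fold lower in growth plate cultures. In the articular cultures 0.875% of all genes were at least 4-fold higher at day 20 and 0.607% at least 4-fold lower. SOX9 differed by a factor of at most 1.06 between the days in either tissue.

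SOX9 was next set beside genes of the cartilage matrix that it is known to switch on. Of that list 5 genes were measured, and none was called for tissue or for culture. COL2A1, type II collagen, had signals of 1615, 1361 and 1603 on the growth plate arrays and 2929, 1164 and 1689 on the articular arrays. ACAN, the aggrecan core protein, had 14874, 12466 and 6596 against 15883, 10781 and 10267. Between articular cultures and native articular cartilage the log2 differences of COL2A1 were -1.33 at day 10 and -0.79 at day 20, and those of ACAN -0.56 and -0.63, where SOX9 had -3.60 and -3.68. HAPLN1, which links aggrecan to hyaluronan, had -0.34 and 0.05. COMP, a bridging glycoprotein of the matrix, was higher in the articular cultures, at 0.86 and 1.28, and COL11A1, a collagen of the same fibrils, had 0.19 and 0.27. The matrix genes thus lay between -1.33 and 1.28 in these pairs. The list's median log2 difference, culture minus native over both tissues, was -0.26, against 0.06 over all genes. Of the SOX family, SOX10, a factor of neural crest cells, was the other gene measured, highest in native articular cartilage at 91.8 and at most 39.8 elsewhere, and SOX6, a partner of SOX9 in cartilage, was below the floor on all 6 arrays.

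**Figure D4:**
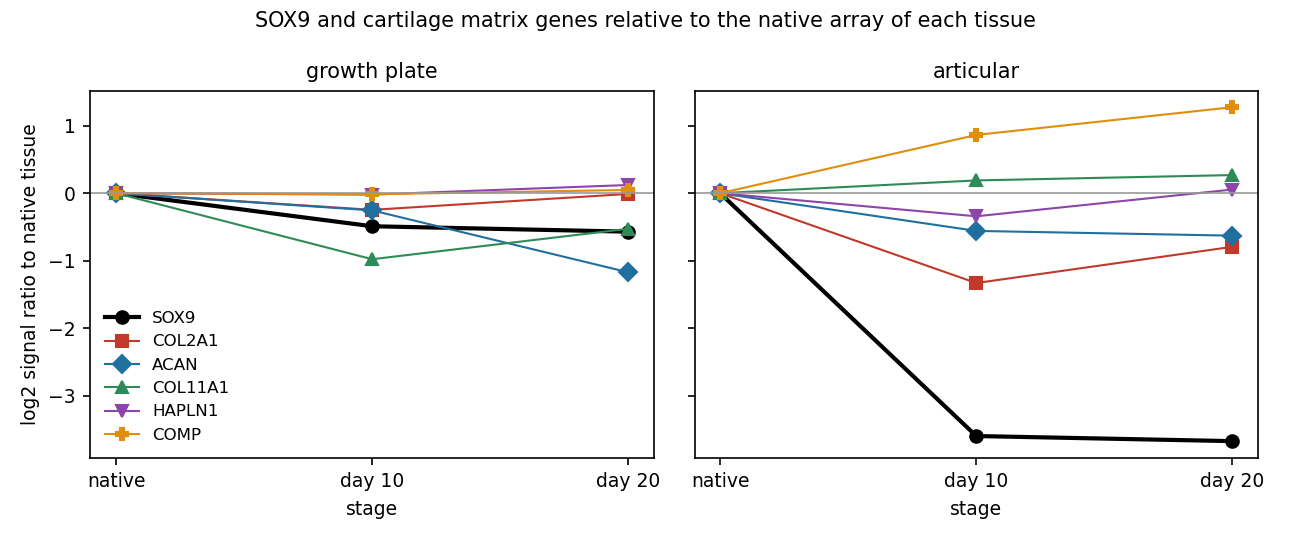
Log2 ratio of the signal at each stage to that of native tissue in growth plate (left) and articular samples (right), for SOX9 (thick black line) and 5 cartilage matrix genes, 1 array per point. In articular samples SOX9 lies at -3.60 and -3.68 in culture while the matrix genes lie between -1.33 and 1.28.

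FOXA2 was set beside genes of hypertrophic chondrocytes. Of the 11 measured, 2 were called for tissue, and these were the only genes called higher in growth plate among all 5601 (0.0357%). The list's median log2 difference for tissue was 1.57, against -0.04 over all genes. COL10A1, a collagen specific to hypertrophic chondrocytes, had 1114, 2375 and 1655 on the growth plate arrays and lay under the floor on every articular array, whereas FOXA2 was above the floor in both articular cultures. ALPL, the alkaline phosphatase of mineralising cells, was the other gene called, with 1522, 3057 and 2287 against 24.2, 29.9 and 90.9. PTH1R, the receptor for parathyroid hormone-related protein, had 3431, 4864 and 3352 against 136, 503 and 1118, and was not called. These 3 genes, like FOXA2, were highest of the 6 arrays in the growth plate culture at day 10, and the list was not uniform in this. IHH and PHOSPHO1 were highest there too, at 448 and 1684. IBSP, a bone matrix protein, MMP13, a collagenase, and VEGFA, a vessel growth factor, were highest in the growth plate culture at day 20, at 15675, 513 and 5792. ENPP1 was highest in native growth plate, at 7732. SPP1 and DMP1 were highest in native articular cartilage, at 19241 and 51.4, the array where FOXA2 was lowest. The only other FOXA gene read here, FOXA1, was above the floor on 1 array and was not tested. Among other forkhead genes 4 were measured and none was called. FOXN3 had 929, 488 and 700 on the growth plate arrays and 1719, 677 and 654 on the articular arrays, FOXP1 had 235, 133 and 373 against 428, 365 and 451, and FOXO1 had 390, 325 and 260 against 627, 299 and 320. FOXM1, a factor of dividing cells, had 118, 182 and 65.8 against 53.0, 189 and 40.1.

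Of the ETS family 3 further genes were measured and none was called for tissue. ETS2 had signals of 740, 1206 and 1090 on the growth plate arrays and 520, 589 and 1308 on the articular arrays. Its other 2 probe sets were also higher in growth plate at day 10, by 2.11 and 1.196 on the log2 scale, and differed from the first in native tissue or at day 20 (0.94 and 0.21 for the one, -0.06 and -0.06 for the other). ETV6 had 225, 146 and 232 against 231, 321 and 259. ELF3, an epithelial ETS factor, was above the floor on 3 arrays, highest in native articular cartilage at 99.1. The log2 differences for tissue were 0.43 ± 0.29, -0.45 ± 0.33 and -0.37 ± 0.38 (SE) for ETS2, ETV6 and ELF3, where ERG had -1.15 ± 0.25.

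Since ERG is also an endothelial gene, vessel markers were read beside it. Of 7 endothelial markers 5 were at the floor on all 6 arrays, namely CDH5, VWF, KDR, TEK and TIE1. The summed signal of the 7 was 198 to 292 on the growth plate arrays and 212 to 379 on the articular arrays. PECAM1, an adhesion protein of endothelium and blood cells, had 67.2, 52.9 and 52.6 on the growth plate arrays and 277, 118 and 65.6 on the articular arrays. The log2 difference of PECAM1 between the articular culture at day 20 and native articular cartilage was -2.08, where ERG differed by a factor of at most 1.03 over the articular arrays. PECAM1 had a log2 difference for tissue of -1.17 ± 0.38 (SE), with an adjusted limma p of 0.452. ESAM, an adhesion protein of endothelial junctions and the other marker above the floor, had 89.3, 206 and 106 against 74.5, 82.9 and 127, a log2 difference of 0.44 ± 0.37. PECAM1 was thus lower in growth plate at each stage, as ERG was. ESAM was higher in growth plate in native tissue and at day 10 and lower at day 20. The part of these markers in the result for ERG was not tested.

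For ETV5, genes of FGF receptors and of feedback on RAS-ERK signalling were read. Of 6 measured, 0 were called for tissue, and the median log2 difference was -0.18, against -0.04 over all genes. FGFR1, an FGF receptor, had signals of 922, 666 and 383 on the growth plate arrays and 1881, 731 and 829 on the articular arrays. Its other probe set was higher in growth plate at day 10 (0.78 on the log2 scale) and lower in native tissue (-0.61) and at day 20 (-0.19). EGR1, an early response factor of ERK signalling, had 204, 152 and 339 against 290, 431 and 1018. DUSP6, a phosphatase that switches off ERK, had 160, 173 and 301 against 280, 91.8 and 191, and was lowest in the articular culture at day 10, as ETV5 was; it was named after its values were seen. FGFR2 was higher in native growth plate, with 672, 642 and 639 against 116, 919 and 610.

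NFIB and NFIC were the family members measured beside NFIA, and both were lower in growth plate at all 3 stages, as 19.5% of all genes were. NFIB had signals of 348, 367 and 125 on the growth plate arrays against 2038, 1000 and 628 on the articular arrays. Its log2 difference for tissue was -2.11 ± 0.30 (SE) with an unadjusted limma p of 0.000482 and an adjusted p of 0.193. Its second probe set gave 215, 113 and 37.9 against 1109, 442 and 316, the same direction at each stage. NFIC had 801, 531 and 750 against 2001, 1042 and 807, a log2 difference of -0.80 ± 0.29, with an adjusted limma p of 0.452. Neither gene was called. NFIB was lower in articular culture than in native articular cartilage, with log2 differences of -1.03 (day 10) and -1.70 (day 20), where NFIA had -0.37 and -0.28.

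**Figure D5:**
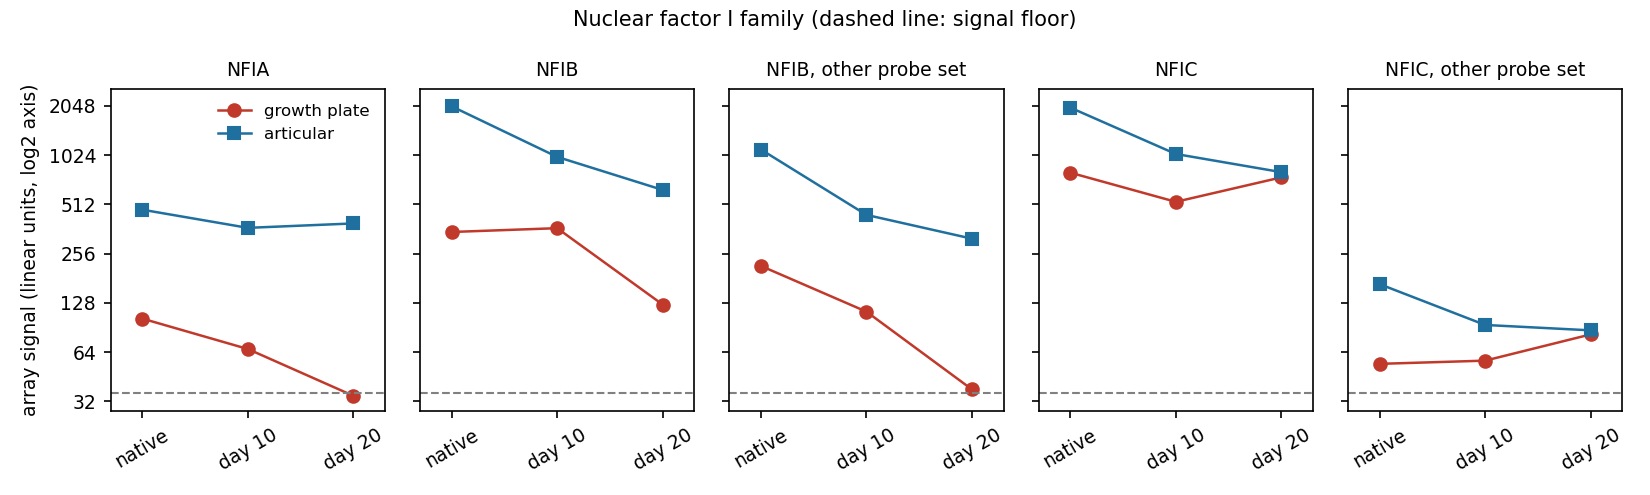
Array signal (linear units on a log2 axis) of NFIA, of NFIB and of NFIC at each stage, with the second probe set of NFIB and of NFIC in panels of their own; growth plate in red circles, articular in blue squares, 1 array per point, floor dashed. Growth plate lies lower in every panel at every stage, with the smallest gap in the NFIC panels at day 20 (-0.11 and -0.08 on the log2 scale).

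The order of the 6 levels was compared with the residual SD of each gene. This SD comes from the same 6 values, as the part that tissue and stage, added up, leave over. With 1 array per condition it does not measure array noise, so the comparison is a description only. For ERG the 3 articular levels lay within the residual SD, 0.26 on the log2 scale. The step of 0.83 to the highest growth plate level exceeded it, as did the step of 0.59 between growth plate at day 20 and at day 10. For NFIA the articular levels likewise lay within the residual SD of 0.46. The steps beyond it were those from articular to native growth plate (1.84), on to growth plate at day 10 (0.62) and on to day 20 (0.89, at least). The steps within growth plate lie near the floor, and both were 0 with the floor at the 60th percentile. For SOX9 only the step of 2.49 between native articular cartilage and the next array exceeded the residual SD of 1.27. For FOXA2 only the last step, at least 2.81 down to native articular cartilage, exceeded its residual SD of 1.54. For ETV5 the articular culture at day 20 stood 1.55 above native growth plate, more than its residual SD, and no other step did. From highest to lowest array the 5 genes spanned 1.60 (ERG), 3.64 (ETV5), 3.68 (SOX9), 3.72 (NFIA, at least) and 5.85 (FOXA2, at least) on the log2 scale, where the median gene spanned 1.11.

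Finally, the 3 genes of nearest pattern were found for each, by the root mean square difference of log2 signals over the 6 arrays after subtracting each gene's mean, a description only. For SOX9 these were SMOX, a polyamine oxidase, JUN, an AP-1 factor, and PPP1R15A, a regulator of the stress response, at 0.18, 0.33 and 0.37, where the median gene lay at 1.31. JUN had signals of 518, 226 and 364 on the growth plate arrays and 2955, 221 and 299 on the articular arrays, and SMOX had 1948, 1352 and 1305 against 8820, 1005 and 1028. For FOXA2 they were ST8SIA4, a polysialyltransferase, ID1, a target of BMP signalling, and DLX5, a homeobox factor of bone and cartilage, at 0.62, 0.71 and 0.77 (median gene 1.89). DLX5 had 746, 1164 and 521 on the growth plate arrays against 101, 443 and 325 on the articular arrays, and like FOXA2 it was highest in the growth plate culture at day 10 and lowest in native articular cartilage. For ERG they were SH3BGRL3, ZNF219 and SMARCD3, a chromatin remodelling subunit, at 0.16, 0.18 and 0.19 (median gene 0.71). For NFIA they were IGF2, an insulin-like growth factor, PLAU, the urokinase protease, and CDH13, a cadherin without a membrane-spanning part, at 0.53, 0.54 and 0.55 (median gene 1.45). For ETV5 the nearest, MYLIP, CBARP and SMAD3, lay at 0.73 to 0.75 (median gene 1.43). Among the 5 genes themselves the nearest pair was ERG and NFIA, at 0.92, and the farthest was FOXA2 and NFIA, at 3.01.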

How the data were processed

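Total RNA was made into biotinylated cRNA from 100 ng by a Two-Cycle protocol and hybridised to 6 Affymetrix arrays, per the labels. The deposited values are signal intensities on a linear scale, 1 for each probe set. The submitters' processing notes name GCOS 1.4, and its settings are not given in the sources used here. Trimmed mean signals (2% off each end) were equal over the 6 arrays to within a ratio of 1.00005, which leaves the deposited scaling in place here.

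Of 24123 probe sets 124 controls were left out. The platform annotation named 10069 of the others with 1 symbol and 198 with several and left 13732 unnamed. Symbols were updated by gene ID from RefSeq (9961 matched). Floor, filter, probe set choice, model and call rule are given with the results. The fit (limma 3.58.1 with intensity trend, R 4.3.3) had 2 residual and 3.74 prior degrees of freedom. It was also run on simulated data with independent noise around tissue plus stage. That run cannot show how the fit behaves where the tissue difference varies with stage. The number of arrays limits the precision, and no depth applies.

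The genes named were the 5, genes of lists written from general knowledge with the largest differences, family members above the floor, and the 3 of nearest pattern. The 5 genes, lists and tests were chosen with earlier results of these data known. Markers of leukocytes, erythroid cells, osteoclasts, osteoblasts, muscle and fat were also read. Alternatives were 2 other scalings, floors at the 25th and 60th percentile, a pseudocount of 50, no filter or one on all 6 arrays, other uses of probe sets, no intensity trend, the cultured arrays by themselves, and each array left out in turn.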

Additional observations from a re-analysis of the deposited data

How the results depend on the processing

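The count of the 5 genes called for tissue, 0 in the fit to all arrays, was 1 with median centring (NFIA, adjusted limma p of 0.0473), 3 in the cultured arrays alone, and 0 to 3 when each array was left out in turn. For culture against native it was 0 to 2 when arrays were left out, and for day 20 against day 10 it was 1 in the cultured arrays alone and 0 to 1 when arrays were left out. Under the other alternatives these counts remained 0. Over all genes the tissue calls, 2 higher and 1 lower, were 0 without a filter, with the filter on all 6 arrays and with every probe set as a feature, 1 higher with no trend or with the mean of probe sets, 4 and 2 with quantile normalization, 4 and 4 with median centring, 3 and 2 or 3 and 3 with other floors, 3 and 3 with the pseudocount, 65 and 83 in the cultured arrays alone, and 2 to 62 higher and 0 to 79 lower when arrays were left out. The culture calls, 0 each way, were 4 and 5 with median centring, 2 and 3 with the 60th percentile floor, 1 and 4 with the pseudocount, 0 and 3 with the filter on all arrays, 1 and 0 with every probe set, and 1 to 752 higher and 6 to 411 lower when arrays were left out. The day calls, 0 each way, were 255 and 252 in the cultured arrays alone and 0 to 251 each way when arrays were left out. With 1 native array left out, the remaining one is assumed to vary like the cultured ones. The tissue differences of FOXA2, ERG, ETV5 and NFIA kept their sign in every alternative run. NFIA lay between -2.95 and -0.97, smallest with the mean of its 3 probe sets, and adjusted limma p-values lay between 0.000363 and 0.587. FOXA2 lay between 1.38 and 3.74 and ERG between -1.28 and -0.94, with ETV5 between -2.49 and -0.62. The filter on all 6 arrays leaves out FOXA2 and NFIA. Of the 5, FOXA2 was the gene called for tissue without the growth plate or the articular day 20 array (3.74 in both). Both fits draw that difference from the same native and day 10 arrays, and leave out the stage with the smallest FOXA2 difference. Signs turned as follows when arrays were left out. For tissue SOX9 ran from -0.93 to 0.62 (0.62 in the cultured arrays alone). For culture FOXA2 ran from -0.39 to 3.14. For day 20 against day 10 SOX9 ran from -0.86 to 0.70, FOXA2 from -2.93 to 0.021, NFIA from -0.95 to 0.15 and ETV5 from -0.46 to 2.90. The day difference of NFIA was 0.045 with the floor at the 60th percentile. The cause was not tested. Median centring shifted the median of all genes in native growth plate minus native articular by -0.25 on the log2 scale, with ERG there at -1.13. With each difference between 2 arrays counted once for every alternative, 22 moved by more than the residual SD and 248 did not. FOXA2 in native tissue was 3.19 with the 60th percentile floor and 2.55 with the mean of probe sets, and NFIA over the 3 stages was -0.93, -0.82 and -1.15 with that mean. ETV5 in articular cultures, day 20 minus day 10, was 1.55 with that mean. The mean takes in probe sets that lie at the floor. Arrays could not be paired by animal, because the labels do not say whether arrays share animals. The stage term of the model sets growth plate against articular within each stage.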

Other observations

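Other transcription regulators of the skeleton were read, 13 of them measured, and 0 were called for tissue with limma, 3 having an unadjusted p under 0.05, as 10.7% of all genes had. EPAS1, a hypoxia-inducible factor, had signals of 332, 92.5 and 157 on the growth plate arrays and 1989, 206 and 255.7 on the articular arrays in the order native, day 10, day 20, highest in native articular cartilage as SOX9 was. LEF1, a factor of WNT signalling, had 2408, 1140 and 2031 against 28.03, 179 and 176. ID1, a target of BMP signalling, had 2959, 2106 and 963 against 131, 1882 and 878, lowest in native articular cartilage as FOXA2 was. MSX1, a homeobox factor, had 37.4, 55.8 and 75.8 against 17.5, 57.6 and 93.5 and was highest at day 20 in both tissues.

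Among genes of the joint surface 5 were measured, and 0 were called for tissue with limma, 4 having an unadjusted p under 0.05, against the same 10.7% of all genes. TNC, the matrix protein tenascin C, had 4915, 2875 and 3165 on the growth plate arrays and 7346, 7033 and 4485 on the articular arrays, lower in growth plate at each stage as ERG was. SFRP1, a WNT inhibitor, had 201, 58.8 and 118 against 632, 453 and 179. VCAM1, a cell adhesion protein, had 749, 107 and 288 against 700, 399 and 872. DKK3 had 1142, 1015 and 5314 against 77.0, 827 and 2311, higher in growth plate at each stage. PTHLH, the signal that holds back hypertrophy, had 74.5, 28.7 and 856 against 35.1, 95.4 and 756.

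Of the markers of other cell types, those of leukocytes had summed signals of 42.4 to 86.5 on the growth plate arrays and 25.8 to 52.7 on the articular arrays over 3 genes. PTPRC and CD163 were at the floor on all arrays and CD14 was above it on 1 array, so the leukocyte sums do not rank the tissues. Osteoblast markers summed to 56.7 to 97.7 on the growth plate arrays and 115 to 124 on the articular arrays over 4 genes. Each of these 4 was above the floor on at most 3 arrays, so the sums hold many signals under the floor and do not rank the tissues. Sums were 255.8 to 448 and 358 to 636 for erythroid genes, 88.0 to 414 and 68.4 to 382 for muscle genes, and 51.6 to 83.2 and 106 to 202 for fat cell genes, growth plate before articular. The fat cell genes too were each above the floor on at most 3 arrays, and their sums do not rank the tissues. The highest muscle sum of each tissue, at day 20, was mostly DES, with 326 of 414 in growth plate and 291 of 382 in articular culture. The osteoclast sum, 6604 to 14878 on the growth plate arrays and 5820 to 17867 on the articular arrays, was nearly all CTSK, a protease that chondrocytes also make. Their part in the differences of the 5 genes was not tested.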
